A study of Mus musculus with 11 samples.

Results

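The interferon-stimulated genes and RNA sensors are 42 genes chosen by symbol, and all 42 were found among the 24490 genes of the count files. They comprise 7 genes grouped as sensors of double-stranded or foreign RNA, 4 transcription factors of the interferon signal, 16 antiviral effectors, 7 genes of the ISG15 and ubiquitin pathways and their partners, 4 interferon-induced GTPases, 3 genes of antigen processing and 1 chemokine. The sensor group includes Adar, which is an RNA-editing enzyme. The libraries came from primary ovarian granulosa cells of RjOrl:SWISS mice, the somatic cells that surround the oocyte in the follicle. Cells received 30 pmol of siRNA with Lipofectamine RNAiMax, a lipid carrier, the mix was replaced after 5 h, and RNA was taken at 30 h. Pools 1, 2, 3 and 4 of siRNA against Akt1, a kinase that acts downstream of PI3K, gave 2 libraries each, and a nontargeting scrambled siRNA (scramble) gave 3 libraries. All 11 libraries therefore come from cells that were transfected with siRNA, and cells without siRNA were not analysed here. A pool was a mix of 3 out of 4 siRNAs against Akt1, and the one left out was siRNA 9 in pool 1, siRNA 7 in pool 2, siRNA 8 in pool 3 and siRNA 6 in pool 4. These contents rest on matching the pool numbers of the protocol with those of the sample titles. Pools 1 and 4 are then the pools that hold siRNA 7 and siRNA 8 together.

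Cells detect RNA that looks viral with cytosolic helicases such as RIG-I (Ddx58) and MDA5 (Ifih1) and with the endosomal receptor TLR3, which signal through adaptor proteins to switch on interferon genes. Secreted type I interferon binds the receptor made of IFNAR1 and IFNAR2 and activates a complex that contains STAT2 and IRF9 and binds the interferon-stimulated response element in the promoters of target genes. Short double-stranded RNAs, including some siRNAs, are known to be able to engage these sensors, so this gene set is commonly looked at after transfection of siRNA.

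The libraries held 23851293 to 32643158 reads in genes, and the spike-in sequences took 0.268% to 0.788% of the counts. Akt1 fell to 63.9 and 58.6 CPM (counts scaled to a fixed number of reads in genes) in pool 1, 52.7 and 55.1 in pool 2, 79.3 and 81.7 in pool 3 and 55.1 and 62.4 in pool 4, against 529, 428 and 399 CPM in scramble, a log2 change of −2.87 ± 0.13 (SE) over all pools. Scramble replicate 1 stood apart: its median correlation with the other 10 libraries was 0.921, while each of those had a median of at least 0.988. Of the granulosa cell markers, Foxl2 (112 to 203 CPM), Inha (1241 to 3486 CPM) and Amhr2 (80.5 to 138 CPM) were well expressed in every library, whereas Fshr (0.0669 to 0.367 CPM) and Amh (0.21 to 0.827 CPM) were near 0. The summed level of the 16 granulosa cell markers was 4751 to 4924 CPM in pool 1, 5570 to 5920 in pool 2, 3783 to 3969 in pool 3, 4606 to 4814 in pool 4 and 6127 to 6798 in scramble, so that every pool library lay below all of scramble and pool 3 was lowest. The 10 theca and stroma markers summed to 4316 to 4388 CPM in pool 1, 4715 to 4937 in pool 2, 3888 to 3985 in pool 3, 4171 to 4353 in pool 4 and 4823 to 5597 in scramble. The 8 surface epithelium markers summed to 340 to 396 CPM over the pools and 347 to 647 CPM in scramble, and the 10 endothelial markers to 23.9 to 25.7 CPM in pool 1, 19.1 to 21.1 in pool 2, 26.6 to 28.4 in pool 3, 23.0 in both libraries of pool 4 and 19.7 to 25.4 in scramble. Macrophages and lymphocytes can carry high levels of interferon-stimulated genes. Of 15 macrophage markers 11 stayed below 1 CPM in all libraries, Ptprc and Adgre1 never passed 0.167 CPM, and the summed level of the list was 7.74 to 8.88 CPM in pool 1, 7.55 to 9.71 in pool 2, 11.5 to 13.3 in pool 3, 8.64 to 9.43 in pool 4 and 7.22 to 11.3 in scramble. All 11 lymphocyte markers stayed below 1 CPM, with sums of 0.674 to 1.08 CPM in pool 1, 0.234 to 0.427 in pool 2, 1.44 to 1.8 in pool 3, 0.626 to 0.807 in pool 4 and 0.258 to 0.629 in scramble. The part of any of these marker levels in the results was not tested. In these bulk libraries, more cells that express a gene and more of its RNA per cell cannot be told apart.

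Promoter sequences are shown for Rsad2, Ifit1, Ifit3, Stat2, Gbp2 and Igtp, because these genes were called higher in pools 1 and 4 than in pools 2 and 3 whichever single library was left out. Mx2 was called in the same way but is not in the table of promoters. Each is the RefSeq window of 300 bases, from 250 before to 50 after the gene's start, on build GRCm38.p6 and written 5′ to 3′ on the gene's strand. Capitals mark matches to the interferon-stimulated response element searched on both strands as GAAA, any 2 bases and GAAA, so a match on the opposite strand reads TTTC, 2 bases and TTTC. The windows lie at chr12:26456403-26456702 on the minus strand for Rsad2 and, on the plus strand, at chr19:34640639-34640938 for Ifit1, chr19:34583279-34583578 for Ifit3, chr10:128270248-128270547 for Stat2, chr3:142620413-142620712 for Gbp2 and chr11:58199306-58199605 for Igtp.
Rsad2: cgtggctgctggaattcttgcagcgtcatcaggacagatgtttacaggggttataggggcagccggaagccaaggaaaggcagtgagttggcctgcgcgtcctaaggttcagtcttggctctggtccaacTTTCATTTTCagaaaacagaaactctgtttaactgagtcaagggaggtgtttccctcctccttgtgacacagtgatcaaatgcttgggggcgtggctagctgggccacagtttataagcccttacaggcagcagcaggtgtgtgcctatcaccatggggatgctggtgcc
Ifit1: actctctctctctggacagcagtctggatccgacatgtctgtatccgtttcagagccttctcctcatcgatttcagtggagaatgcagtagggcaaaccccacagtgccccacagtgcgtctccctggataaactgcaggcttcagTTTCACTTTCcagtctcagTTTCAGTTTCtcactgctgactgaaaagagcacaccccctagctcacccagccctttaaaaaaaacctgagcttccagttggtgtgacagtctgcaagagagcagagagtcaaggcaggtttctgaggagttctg
Ifit3: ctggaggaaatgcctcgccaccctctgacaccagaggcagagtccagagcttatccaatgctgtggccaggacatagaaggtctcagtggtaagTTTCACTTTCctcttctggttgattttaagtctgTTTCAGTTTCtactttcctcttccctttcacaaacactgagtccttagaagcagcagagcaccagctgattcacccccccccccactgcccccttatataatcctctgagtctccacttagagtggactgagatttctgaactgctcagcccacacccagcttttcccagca
Stat2: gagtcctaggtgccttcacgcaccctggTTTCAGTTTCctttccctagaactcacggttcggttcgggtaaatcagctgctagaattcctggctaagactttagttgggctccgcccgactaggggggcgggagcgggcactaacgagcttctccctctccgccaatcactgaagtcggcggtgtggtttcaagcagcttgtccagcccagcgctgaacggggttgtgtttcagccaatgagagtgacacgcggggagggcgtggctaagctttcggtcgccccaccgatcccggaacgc
Gbp2: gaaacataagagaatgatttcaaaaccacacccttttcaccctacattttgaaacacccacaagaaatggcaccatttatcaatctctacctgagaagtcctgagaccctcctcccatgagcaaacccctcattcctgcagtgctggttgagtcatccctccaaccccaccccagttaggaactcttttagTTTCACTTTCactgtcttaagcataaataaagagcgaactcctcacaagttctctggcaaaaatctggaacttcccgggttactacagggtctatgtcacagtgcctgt
Igtp: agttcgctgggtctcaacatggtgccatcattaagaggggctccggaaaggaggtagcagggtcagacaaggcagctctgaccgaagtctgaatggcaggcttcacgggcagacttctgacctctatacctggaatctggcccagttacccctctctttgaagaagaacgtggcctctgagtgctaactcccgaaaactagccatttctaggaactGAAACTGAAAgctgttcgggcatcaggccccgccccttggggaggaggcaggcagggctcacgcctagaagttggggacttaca
Each of these 6 windows held a match, with the first base of the match 120 bases before the gene's start in Rsad2, 104 and 85 in Ifit1, 156 and 122 in Ifit3, 222 in Stat2, 59 in Gbp2 and 34 in Igtp. The table of promoters held 33 of the 42 genes, and 16 of the 33 (48.5%) had a match, against 1079 of all 27025 genes in the table (3.99%). A gamma-activated site, searched on both strands as TTC, any 3 bases and GAA, was found in 10 of the 33 (30.3%) and in 9.55% of all genes. Of the 33, 4 held both motifs, and in 1 the matches shared bases. A match is a run of letters in the window and does not show that a factor binds there. Genes in the table that were called higher in pools 1 and 4 than in pools 2 and 3 had a match in 13 of 22 cases, and the genes not called had one in 3 of 11.

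Levels per exon length, as TPM (CPM corrected for length), spread widely over the 42 genes. Bst2, which tethers budding virions to the cell surface, was the most abundant at 822 TPM over the 11 libraries, followed by the GTPase Irgm1 at 152, the ubiquitin ligase Trim25 at 109 and the ubiquitin-like modifier Isg15 at 75.2. Zbp1, a sensor of Z-form nucleic acid, had 1 to 7 reads per library and was not tested. Mx1, Oas1a and Oas2 also averaged under 1 CPM, which leaves 38 genes with a mean of at least 1 CPM and 41 that passed the filter on low counts.

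The genes were high together in both pool 1 libraries and in replicate 1 of pool 4, and lower in the remaining libraries. Relative to each gene's mean over the 11 libraries, on a log2(CPM + 0.5) scale, the median of the 38 genes lay at 0.47 and 0.45 in the pool 1 libraries, at −0.04 and −0.32 in pool 2, at −0.09 and 0.14 in pool 3, at 0.59 and −0.08 in pool 4 and at −0.59, −0.09 and −0.36 in scramble. Of the 38 genes, 37 were above their own mean in each of the 3 libraries with the highest medians, and 0 were above it in pool 2 replicate 2 and in scramble replicate 3. Pool 4 replicate 1 was the highest library for 23 of 41 genes, against 3.68% of all 14144 genes tested. Pool 1 replicate 2 was the highest for 9 of 41 (4.21% of all genes). Scramble replicate 1 was the lowest for 20 of 41 and the highest for 6, and over all genes it was the lowest for 37% and the highest for 37.5%.

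**Figure D1:**
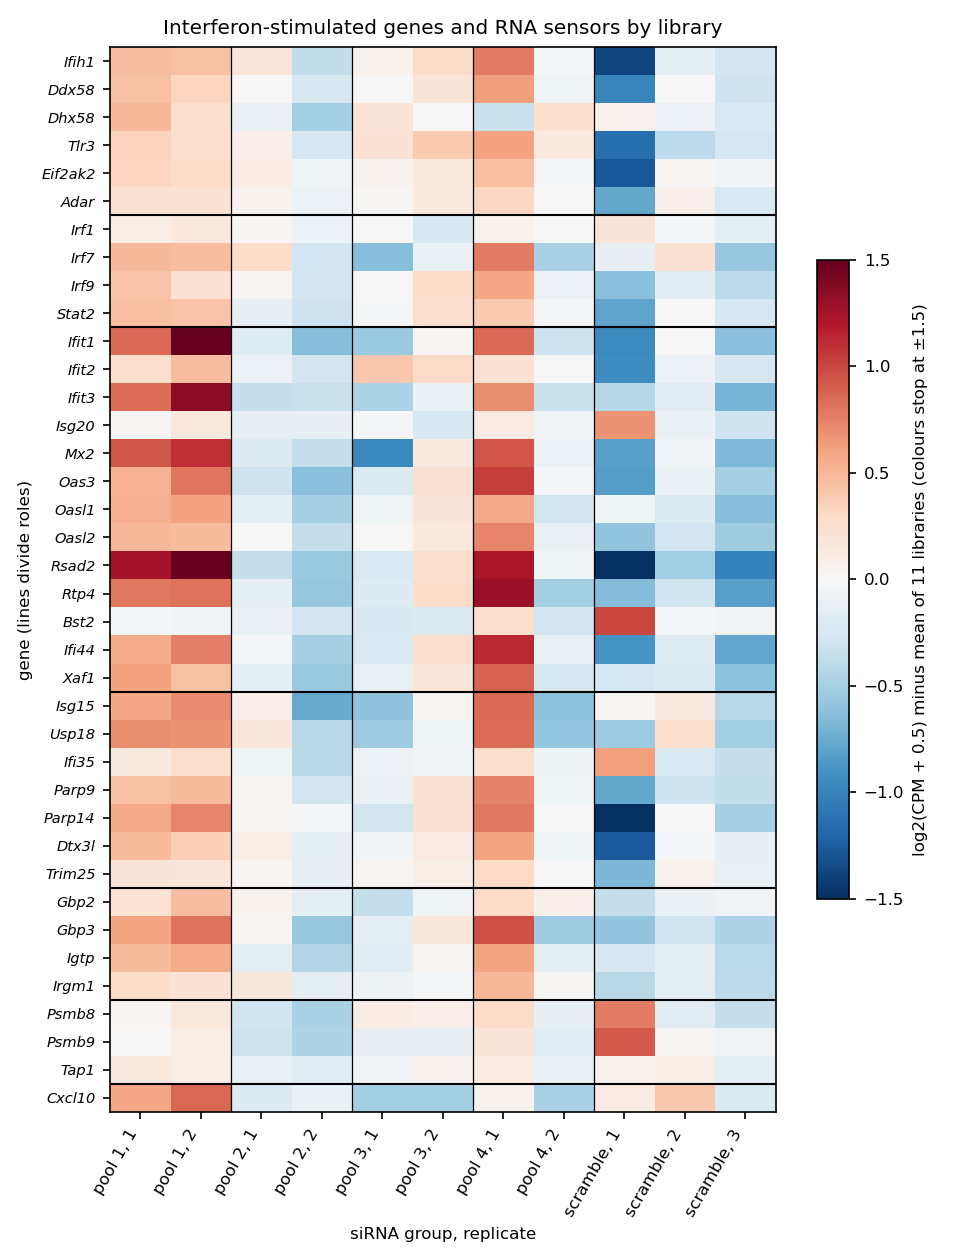
Each row is 1 of the 38 genes with a mean of at least 1 CPM, grouped by role, and each column is 1 library, with the pools to the left of scramble. Colour gives log2(CPM + 0.5) minus the gene's mean over 11 libraries. Both pool 1 columns and pool 4 replicate 1 are red in most rows (median 0.47, 0.45 and 0.59), and scramble replicate 1 is dark blue in many rows and red in a few.

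Among the RNA sensors, Ifih1 (MDA5, which recognises long double-stranded RNA) had 27.9 and 27.3 CPM in pool 1, 22.7 and 15.5 in pool 2, 20.8 and 24.6 in pool 3, 34.9 and 19.7 in pool 4, and 7.38, 18.1 and 16.3 in scramble. Every library of pools 1, 3 and 4 lay above all 3 scramble libraries. Ddx58 (RIG-I, which recognises short double-stranded RNA with a 5′ triphosphate) had 95.1 and 87.9 CPM in pool 1, 70.8 and 59.2 in pool 2, 70.8 and 80.3 in pool 3, 109 and 67.4 in pool 4, and 35.1, 70.7 and 56.6 in scramble. Its pool 1 values lay above every library but pool 4 replicate 1. Tlr3, the endosomal receptor for double-stranded RNA, had 5.27 and 5 CPM in pool 1, 4.33 and 3.35 in pool 2, 4.82 and 5.49 in pool 3, 6.45 and 4.55 in pool 4, and 1.59, 2.98 and 3.31 in scramble. It was the only sensor whose 8 pool values all lay above the 3 scramble values, by a narrow gap to pool 2 replicate 2. Eif2ak2 (PKR, the kinase that stops translation on binding double-stranded RNA) had 88.8 and 87.1 CPM in pool 1, 76.6 and 68 in pool 2, 73.7 and 78.9 in pool 3, 97.6 and 69.7 in pool 4, and 29.2, 71.8 and 69 in scramble. Adar, which edits double-stranded RNA and so hides it from MDA5, had 108 and 108 CPM in pool 1, 95.8 and 86.7 in pool 2, 92.9 and 102 in pool 3, 114 and 92.1 in pool 4, and 54, 97 and 78.3 in scramble. Both genes were lowest in scramble replicate 1, and pool 4 replicate 1 was their highest library. Dhx58 (LGP2, a helper of MDA5) was low, at 25 to 68 reads per library, with 2.18 and 1.79 CPM in pool 1, 1.28 and 0.837 in pool 2, 1.69 and 1.41 in pool 3, 1.02 and 1.76 in pool 4, and 1.5, 1.29 and 1.13 in scramble. Unlike the other sensors, it was lower in pool 4 replicate 1 than in pool 4 replicate 2.

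Of the transcription factors, Stat2, a subunit of the complex that type I interferon activates, had 68.6 and 67.5 CPM in pool 1, 46 and 40.4 in pool 2, 49.2 and 60.1 in pool 3, 65.9 and 49.6 in pool 4, and 28.8, 50 and 41.9 in scramble. Irf9, the DNA-binding subunit of the same complex, had 52.7 and 45.8 CPM in pool 1, 40.3 and 32.3 in pool 2, 39.2 and 47.6 in pool 3, 58.7 and 36.9 in pool 4, and 25.2, 34.8 and 29.7 in scramble. Pools 1, 3 and 4 lay above scramble for Irf9, and pool 1 alone did for Stat2. Irf7, which drives the later wave of interferon genes, had 19.1 and 18.9 CPM in pool 1, 16.5 and 11 in pool 2, 8.49 and 12.6 in pool 3, 23.3 and 9.5 in pool 4, and 12.4, 15.9 and 8.93 in scramble. The gap between the pool 4 libraries was wider than the gap between any 2 scramble libraries for this gene. Irf1, a factor shared with the type II interferon response, ranged from 15.6 to 21.2 CPM over all libraries, with 19.8 and 20.5 in pool 1, 18.7 and 17.4 in pool 2, 18.4 and 15.6 in pool 3, 19.2 and 18.5 in pool 4, and 21.2, 18.1 and 16.7 in scramble.

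Rsad2 (viperin, a radical-SAM enzyme that makes a chain-terminating nucleotide) had the widest span among the effectors that were detected in every library. It had 22.5 and 37.4 CPM in pool 1, 7.09 and 6.13 in pool 2, 7.76 and 11.1 in pool 3, 22.2 and 8.8 in pool 4, and 1.99, 6.26 and 4.32 in scramble, an 18.8-fold span. Ifit1, which binds RNA that lacks the cap methylation of host messengers, had 13.1 and 21.7 CPM in pool 1, 6.2 and 4.38 in pool 2, 4.67 and 7.18 in pool 3, 13.2 and 5.65 in pool 4, and 3.43, 7.11 and 4.4 in scramble. For both genes, the pool 1 libraries and pool 4 replicate 1 lay above the other 8 libraries, whose highest value was 11.1 CPM for Rsad2 and 7.18 CPM for Ifit1. Mx2, a dynamin-like GTPase with antiviral activity, had 9.51 and 10.6 CPM in pool 1, 4.07 and 3.58 in pool 2, 2.17 and 5.3 in pool 3, 9.58 and 4.44 in pool 4, and 2.48, 4.57 and 2.81 in scramble. Rtp4, a receptor transporter protein that restricts some viruses, had 13.7 and 14 CPM in pool 1, 7.02 and 5.09 in pool 2, 6.69 and 9.53 in pool 3, 19.5 and 5.32 in pool 4, and 4.78, 6.19 and 4.19 in scramble. Its log2 gap of 1.78 between the pool 4 libraries was the widest among the 38 genes. Ifi44 had 8.93 and 10.3 CPM in pool 1, 5.81 and 4.02 in pool 2, 4.96 and 7.08 in pool 3, 13.5 and 5.39 in pool 4, and 2.97, 5.12 and 3.23 in scramble. Xaf1, an antagonist of the apoptosis inhibitor XIAP, had 18.1 and 16.1 CPM in pool 1, 10.7 and 7.87 in pool 2, 10.8 and 13.5 in pool 3, 22.2 and 9.9 in pool 4, and 9.77, 10.3 and 7.51 in scramble.

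Oasl2, a relative of the oligoadenylate synthetases, had 47.2 and 46.2 CPM in pool 1, 33.4 and 25.9 in pool 2, 33.2 and 37.2 in pool 3, 55.8 and 30.8 in pool 4, and 22, 27.3 and 22.8 in scramble, so that only pool 2 overlapped scramble. The other 9 effectors are given by their ranges. Ifit3, Oas3, Oasl1 and Oas2 were highest in the same 3 libraries as Rsad2, with 8.81, 2.78, 2.87 and 0.9 CPM at most, and Oas1a and Mx1 reached 1.45 and 0.911 CPM. Mx1 had 0 reads in pool 2 replicate 1, which allows up to 0.0985 CPM by counting error. Ifit2 ranged from 8.21 to 22.3 CPM with its highest values in pools 1 and 3, while Bst2 (140 to 344 CPM) and the exonuclease Isg20 (7.71 to 15.7 CPM) were highest in scramble replicate 1.

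**Figure D2:**
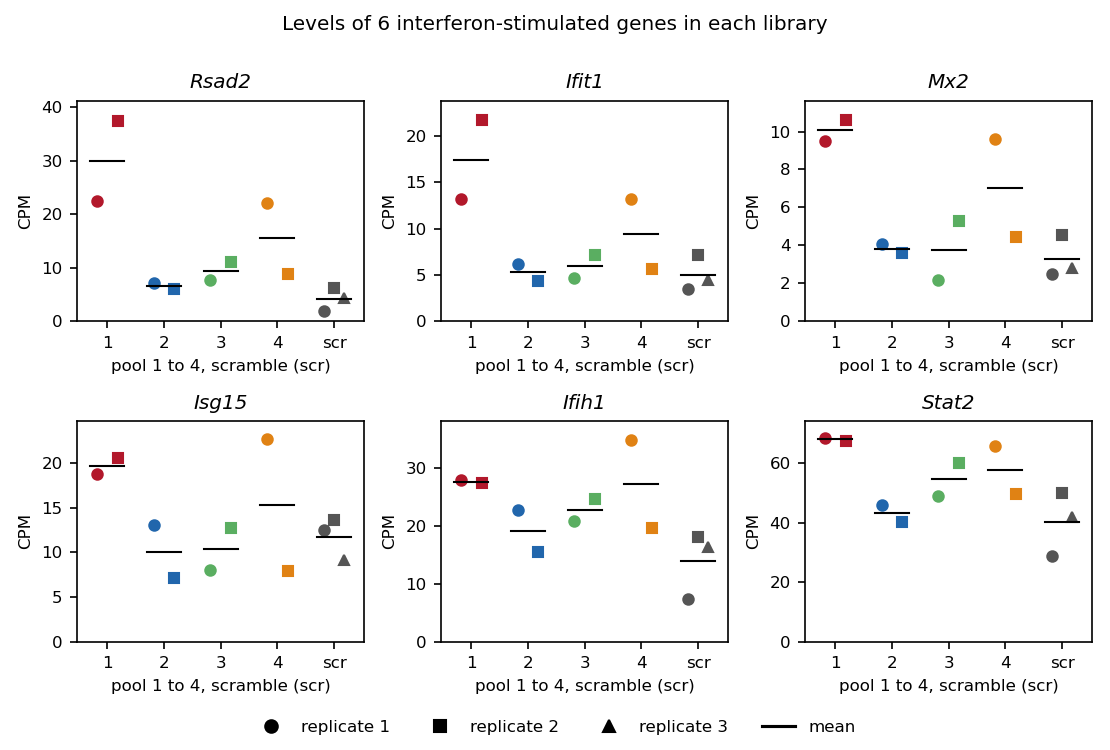
Levels of Rsad2, Ifit1, Mx2, Isg15, Ifih1 and Stat2 in CPM (linear axes from 0), 1 panel a gene, with pools 1 to 4 to the left of scramble (scr), 1 point a library and a bar for the group mean. In pool 4 the circle of replicate 1 lies above the square of replicate 2 in each panel, for example at 22.2 and 8.8 CPM for Rsad2, while the pool 1 points both lie high.

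Isg15, the modifier that is attached to proteins after interferon, had 18.8 and 20.6 CPM in pool 1, 13.1 and 7.13 in pool 2, 8.01 and 12.7 in pool 3, 22.8 and 7.92 in pool 4, and 12.5, 13.6 and 9.18 in scramble. Usp18, the protease that removes it and that dampens the interferon receptor, had 14.2 and 14 CPM in pool 1, 9.75 and 6.33 in pool 2, 5.73 and 8.18 in pool 3, 15.8 and 5.58 in pool 4, and 5.73, 10.4 and 5.87 in scramble. In both genes pool 4 held values from the top and from the bottom of the whole range. Parp9, an ADP-ribosyltransferase that works with the ubiquitin ligase Dtx3l, had 38.1 and 38.7 CPM in pool 1, 28.3 and 23 in pool 2, 25.9 and 32.3 in pool 3, 46.8 and 26.5 in pool 4, and 16.1, 22.3 and 21.5 in scramble. All 8 pool libraries lay above scramble for Parp9. It shares 458 exon bases (9.4% of its own) with Dtx3l on the opposite strand, and no source used here gives the strand setting of the counting, so reads of that stretch cannot be told apart. Larger shares of exon bases overlap opposite-strand genes in Adar (16.8%), Ifi35 (16.8%) and Psmb8 (14.7%), and a same-strand gene in Rtp4 (13.9%). Igtp shares 8.0% with Irgm2 on the same strand, and further members have overlaps. The part of these overlaps in the levels was not tested. Parp14, a relative of Parp9, had 9.02 and 10.1 CPM in pool 1, 6.11 and 5.79 in pool 2, 4.82 and 6.96 in pool 3, 10.6 and 5.87 in pool 4, and 1.72, 5.9 and 4.02 in scramble. Dtx3l (7.51 to 28.1 CPM) and Trim25, which ubiquitinates RIG-I (89.2 to 177 CPM), were highest in pool 4 replicate 1 and lowest in scramble replicate 1. Ifi35 ranged from 17.3 to 35.6 CPM and was highest in scramble replicate 1.

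Gbp3, a guanylate-binding protein, had 8.7 and 10.2 CPM in pool 1, 5.74 and 3.61 in pool 2, 5.04 and 6.36 in pool 3, 11.4 and 3.7 in pool 4, and 3.52, 4.46 and 3.9 in scramble. Igtp (6.9 to 14.7 CPM), Irgm1 (151 to 286 CPM) and Gbp2 (10.9 to 19.8 CPM) had smaller spans. The chemokine Cxcl10 was low, at 1.1 to 3.64 CPM, and highest in pool 1. Of the antigen-processing genes, the immunoproteasome subunits Psmb8 (21.7 to 52.3 CPM) and Psmb9 (3.75 to 10.6 CPM) were highest in scramble replicate 1, and the peptide transporter Tap1 was nearly flat at 39 to 48.5 CPM.

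Pool 1 was the pool in which most of the genes lay above scramble, and Rsad2 was the gene that passed the test. Both pool 1 libraries were above all 3 scramble libraries for 35 of 41 genes, against 23.7% of all genes tested. Rsad2 averaged 29.9 ± 10.5 CPM in pool 1 (n = 2) and 4.19 ± 2.14 CPM in scramble (n = 3, SD), a log2 change of 2.79 ± 0.51 (SE) and an edgeR adjusted p of 0.037. It was the 1 called gene of 41 in a comparison that called 1.93% of all genes, and 0.46% as higher. The median log2 change of the 41 genes was 0.70, against −0.02 over all genes tested, and 37 lay above 0. The next changes were those of Ifit3 (1.66 ± 0.34, edgeR adjusted p = 0.0507) and Ifit1 (1.75 ± 0.44, edgeR adjusted p = 0.1), and 23 of 41 had an unadjusted p below 0.05, against 2091 of all 14144 genes. DESeq2 called 9 of 41 and 788 genes in all, and limma-voom 1 and 284. By role, the median log2 change in pool 1 was 1.16 for the antiviral effectors, 0.75 for the ISG15 and ubiquitin group, 0.64 for the sensors, 0.63 for the GTPases, 0.61 for the transcription factors and −0.12 for antigen processing.

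The number of calls in pool 1 depended on scramble replicate 1. Without it, 28 of 41 genes were called higher and 0 lower in pool 1, in a fit that called 28.8% of all genes, 11.8% as higher and 17% as lower, with a median log2 change of 0.62 against 0.00 over all genes. Rsad2 (2.42 ± 0.30, edgeR adjusted p = 2.69e-06), Ifit3 (1.63 ± 0.27, edgeR adjusted p = 7.68e-05) and Ifit1 (1.51 ± 0.28, edgeR adjusted p = 0.000353) led, and 5 of the 6 tested sensors passed. These were Tlr3 (0.64 ± 0.18), Ifih1 (0.61 ± 0.18), Ddx58 (0.45 ± 0.14), Eif2ak2 (0.25 ± 0.09) and Adar (0.23 ± 0.09). Irf9 (0.54 ± 0.15) and Stat2 (0.49 ± 0.10) passed among the transcription factors, Irf1 and Irf7 did not. Leaving out 1 of the other 10 libraries gave 2 called genes without either pool 4 library (0.762% of all genes each time) and 0 without any of the rest, so the call of Rsad2 with all 11 libraries was narrow.

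In pool 4 the genes lay above scramble on average, but replicate 1 carried most of the difference. Their median log2 change was 0.55 against −0.03 over all genes, with 33 of 41 above 0, and edgeR called 0 of 41 in a comparison that called 2.57% of all genes. At an unadjusted p below 0.05 there were 14 of 41 and 2272 of all 14144 genes, DESeq2 called 5 of 41 and 872 genes in all, and limma-voom 0 and 344. Rsad2 again had the largest log2 change, 1.84 ± 0.51 (edgeR adjusted p = 0.12), with 15.5 ± 9.46 CPM in pool 4 and 4.19 ± 2.14 CPM in scramble. Without scramble replicate 1, edgeR called 17 of 41 as higher and 0 as lower (31% of all genes called, 13.2% as higher and 17.8% as lower). Without pool 4 replicate 1, the median was 0.17, with 0 of 41 called (0.118% of all genes) and 1 with an unadjusted p below 0.05 (1126 of all genes). Without both libraries, a setting chosen after the data were seen, the median was 0.06 and the 1 called gene (20.4% of all genes called, 12.7% as lower) was Bst2, which was lower in pool 4 by −0.31 ± 0.06 (edgeR adjusted p = 0.000863).

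Pools 2 and 3 showed smaller differences from scramble. In pool 2 the median log2 change was 0.13 against −0.01 over all genes, and edgeR called 0 of 41 (0.00707% of all genes). In pool 2, 1 of 41 had an unadjusted p below 0.05, against 653 of all 14144 genes, and DESeq2 called 0 of 41 and 28 genes in all, and limma-voom 0 and 1. In pool 3 the median was 0.21 against −0.02, and edgeR called 0 of 41 while it called 11.2% of all genes. Here 3 of 41 had an unadjusted p below 0.05, against 3747 of all 14144 genes, and DESeq2 called 2 of 41 and 2323 genes in all, and limma-voom 0 and 1586. Both libraries lay above all of scramble for 3 of 41 genes in pool 2 (15.4% of all genes), for 14 in pool 3 (28.7%) and for 14 in pool 4 (23.2%). They lay below it for 2 of 41 in pool 2 (10.6%), namely Bst2 and Psmb9, for 3 in pool 3 (16.3%), namely Bst2, Cxcl10 and Psmb9, and for 0 in pools 1 and 4 (11.8% and 13.3% of all genes). Without scramble replicate 1, pool 3 had 5 called genes (48.8% of all genes called, 22.7% as higher and 26.1% as lower). Ifit2 (0.43 ± 0.10), Tlr3 (0.63 ± 0.18) and Psmb8 (0.26 ± 0.10) were higher, and Cxcl10 (−0.97 ± 0.28) and Bst2 (−0.28 ± 0.10) were lower. In the same setting pool 2 had 0 of 41 called (4.39% of all genes), with 2 at an unadjusted p below 0.05 (2337 of all genes). The 4 comparisons share the scramble libraries, so their results are not independent of each other.

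Over all 8 pool libraries against scramble, edgeR called 0 of 41 genes, as it called 1 of 14144 genes (0.00707%), which was Akt1. The median log2 change was 0.52 against −0.02 over all genes, 33 of 41 lay above 0, and 16 had an unadjusted p below 0.05, against 4041 of all genes. DESeq2 called 4 of 41 and 1147 genes in all, and limma-voom 0 and 1. With scramble replicate 1 left out, edgeR called 0 of 41 and 66 genes in all, and the median log2 change was 0.29. Without scramble replicate 3, edgeR called 3 of 41, 1 of them higher, and 16.5% of all genes. In the authors' deposited table of this comparison, 5 of the 37 genes with an adjusted p were below 0.05 and all 5 were higher, against 985 of 10136 genes overall. These 5 were Tlr3, Parp9, Oasl2, Irf9 and Irgm1, with log2 changes of 0.70, 0.55, 0.54, 0.46 and 0.38 in the authors' deposited table. In the same order, scramble replicate 1 stood at −0.80, −0.43, −0.18, −0.35 and −0.15 (log2) from the mean of scramble replicates 2 and 3. The part of that library in the authors' calls was not tested.

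The pools differed among themselves. A test of any difference among the 4 pools, on the 8 pool libraries alone, called 31 of 41 genes, where it called 48.6% of all genes. Rsad2 (edgeR adjusted p = 3.14e-06), Ifit3 (1.51e-05) and Cxcl10 (1.64e-05) had the smallest p-values. Leaving out pool 3 replicate 1 gave 18 of 41 (40.2% of all genes), DESeq2 called 8 (4974 genes in all), limma-voom 31 (6855), and a fit with all 11 libraries, whose spread includes that of scramble replicate 1, called 0 of 41 (2.46% of all genes), with 6 of 41 and 1702 of all genes at an unadjusted p below 0.05.

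The mean of pools 1 and 4 was then set against the mean of pools 2 and 3, a contrast chosen with earlier results of these data known. All 41 genes were higher in pools 1 and 4, and 28 of them were called higher and 0 lower, in a comparison that called 10.7% of all genes, 4.44% as higher and 6.31% as lower. Their median log2 difference was 0.38, against 0.00 over all genes. The genes are not independent of each other, because they also shifted together between the 2 libraries of a pool. In pool 4, replicate 1 was higher than replicate 2 for 37 of 38 genes, with a median log2 difference of 0.67. Each test took 1 gene alone, so the count of called genes does not allow for such a shared shift. Rsad2 differed by 1.42 ± 0.20 (2.67-fold, edgeR adjusted p = 3.86e-05), Ifit1 by 1.16 ± 0.20 (edgeR adjusted p = 0.000335), Mx2 by 1.11 ± 0.19 (0.000415) and Ifit3 by 1.11 ± 0.18 (0.000286). The called effectors numbered 11 of 16, with Oas2, Oas3, Rtp4, Ifi44, Xaf1, Oasl1 and Oasl2 completing them at 1.17 to 0.46. All 7 genes of the ISG15 and ubiquitin group passed, from Isg15 (0.74 ± 0.21, edgeR adjusted p = 0.0229) and Usp18 (0.69 ± 0.19, 0.0227) through Parp14 (0.56 ± 0.13, 0.00746) and Parp9 (0.44 ± 0.11, 0.0106) to Dtx3l, Ifi35 and Trim25 at 0.34, 0.29 and 0.15. All 4 GTPases passed, with Gbp3 at 0.68 ± 0.20 and Igtp at 0.57 ± 0.11.

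Of the sensors, Ifih1 (0.38 ± 0.12, edgeR adjusted p = 0.0432), Ddx58 (0.34 ± 0.09, 0.0144) and Adar (0.15 ± 0.05, 0.0469) passed, while Dhx58 (0.37 ± 0.19, 0.254), Tlr3 (0.24 ± 0.11, 0.21) and Eif2ak2 (0.19 ± 0.06, 0.0547) did not. Stat2 was the 1 of 4 transcription factors that passed, by 0.35 ± 0.07 (edgeR adjusted p = 0.000955), and Irf7 (0.53 ± 0.17, 0.0547), Irf9 (0.27 ± 0.10, 0.0752) and Irf1 (0.14 ± 0.06, 0.114) did not. Cxcl10 (0.74 ± 0.17, edgeR adjusted p = 0.00577) and Psmb8 (0.23 ± 0.07, 0.0238) also passed, but their pool means did not divide this way. For Cxcl10 pool 1 averaged 3.28 CPM, while the pool 4 mean (1.51) was below that of pool 2 (1.58) and above that of pool 3 (1.10). For Psmb8 pool 2 alone was low, with a mean of 23.3 CPM, and pool 3 (32.6) was level with pool 1 (32.7) and pool 4 (32.6). Akt1 itself was lower in pools 1 and 4 than in pools 2 and 3, by −0.15 ± 0.04 on the log2 scale (edgeR adjusted p = 0.0134). Of the 4 pools, however, pool 2 had the lowest mean Akt1 level (libraries at 52.7 and 55.1 CPM) and pool 3 the highest (79.3 and 81.7 CPM). The part of Akt1 in these differences was not tested.

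Without pool 4 replicate 1 the contrast called 8 of 41 genes, all higher (7.23% of all genes called, 2.81% as higher), and the median was 0.21. These were 5 effectors, 2 GTPases and Stat2. Rsad2 then differed by 1.02 ± 0.15 (edgeR adjusted p = 3.17e-05) and Ifit1 by 0.80 ± 0.17 (edgeR adjusted p = 0.00206). Without pool 3 replicate 1 there were 10 called genes (7.56% of all genes) and without pool 2 replicate 2 there were 16 (8.19%). Rsad2, Ifit1, Ifit3, Mx2, Stat2, Gbp2 and Igtp, 7 in all, were called whichever of the 8 libraries was left out. DESeq2 called 5 of 41, all among the 28, and 885 genes in all, and limma-voom 23 and 1481. The fit with all 11 libraries called 0 of 41 and 1 gene in all (0.00707%), with 14 of 41 and 442 of all genes at an unadjusted p below 0.05. Every library of pools 1 and 4 lay above every library of pools 2 and 3 for 2 of 41 genes, Gbp2 and Oas2, against 2.62% of all genes, and below for 0 (1.46% of all genes).

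**Figure D3:**
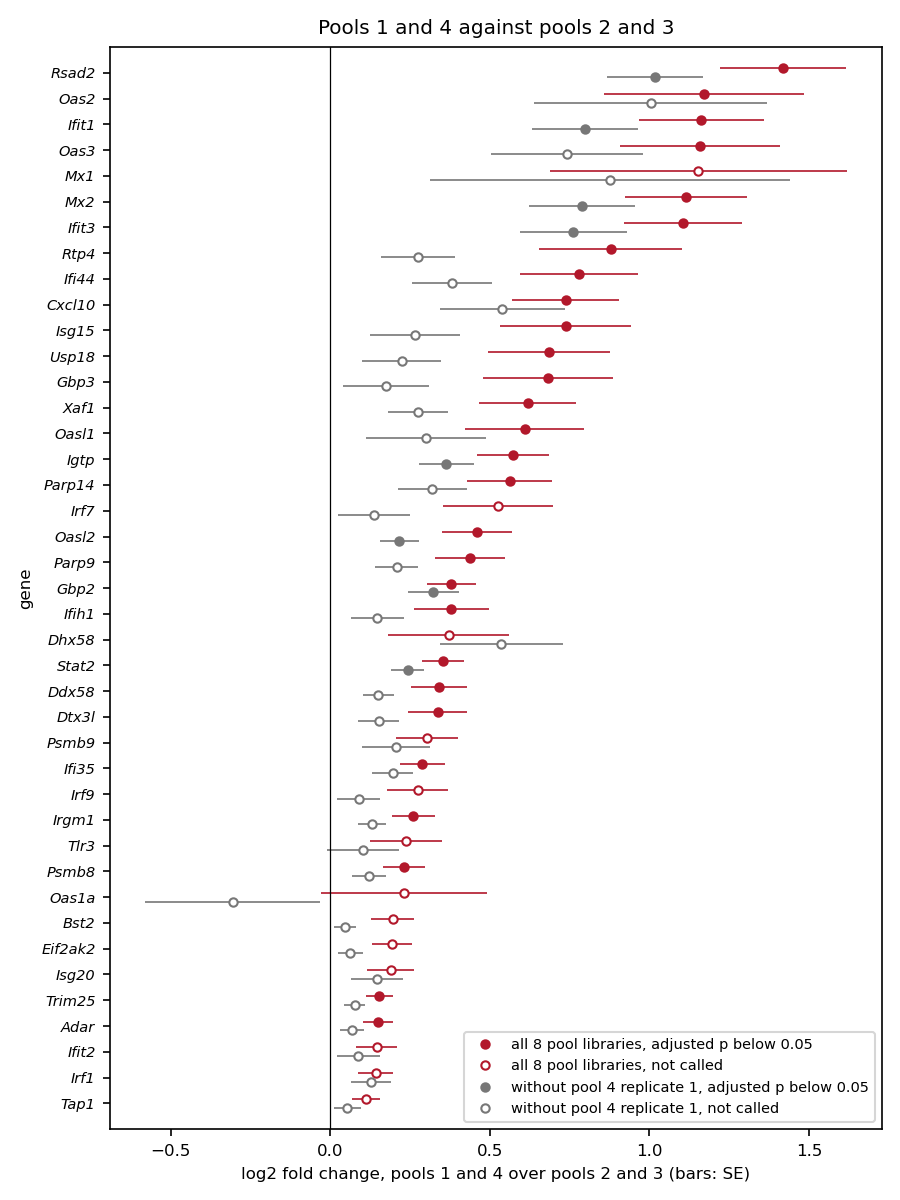
Log2 fold change of pools 1 and 4 over pools 2 and 3 for the 41 tested genes (horizontal axis, bars are SE), in red with all 8 pool libraries and in grey without pool 4 replicate 1, filled where the edgeR adjusted p was below 0.05. All 41 red points lie right of 0 and 28 are filled, and 8 grey points are filled, led by Rsad2 at 1.02.

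The 2 libraries of a pool differed in the genes as a group. The numbers of genes called, or above scramble, are therefore not numbers of independent results. In pool 4, replicate 1 was higher than replicate 2 for 37 of 38 genes, with a median log2 difference of 0.67, and 35 of the 38 lay beyond the 95th percentile of all genes (0.18). Over all genes the same libraries had a median difference of −0.01 and a correlation of 0.998. In pool 2, replicate 1 was higher for 35 of 38 (median 0.28, 25 beyond the 95th percentile of 0.18), and in pool 3, replicate 1 was lower for 31 of 38 (median −0.22). The pool 1 libraries were closest, with a median of −0.04 and 16 of 38 above 0. Scramble replicate 2 exceeded replicate 3 for 36 of 38 (median 0.24, 17 beyond the 95th percentile of 0.27).

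Scramble replicate 1 differed from replicates 2 and 3 in a way that went with gene length. Across the 38 genes, its log2 difference from the mean of the other 2 scramble libraries correlated with log2 exon length at −0.63, and across 12252 genes at −0.64, as a description over genes that share 3 libraries. The 19 genes with shorter exons had a median difference of 0.03 and the 19 with longer exons one of −0.65. Bst2 (903 exon bases) stood at 1.04 on this scale and Parp14 (9306 bases) at −1.28. The comparisons with scramble are therefore given with and without this library.

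**Figure D4:**
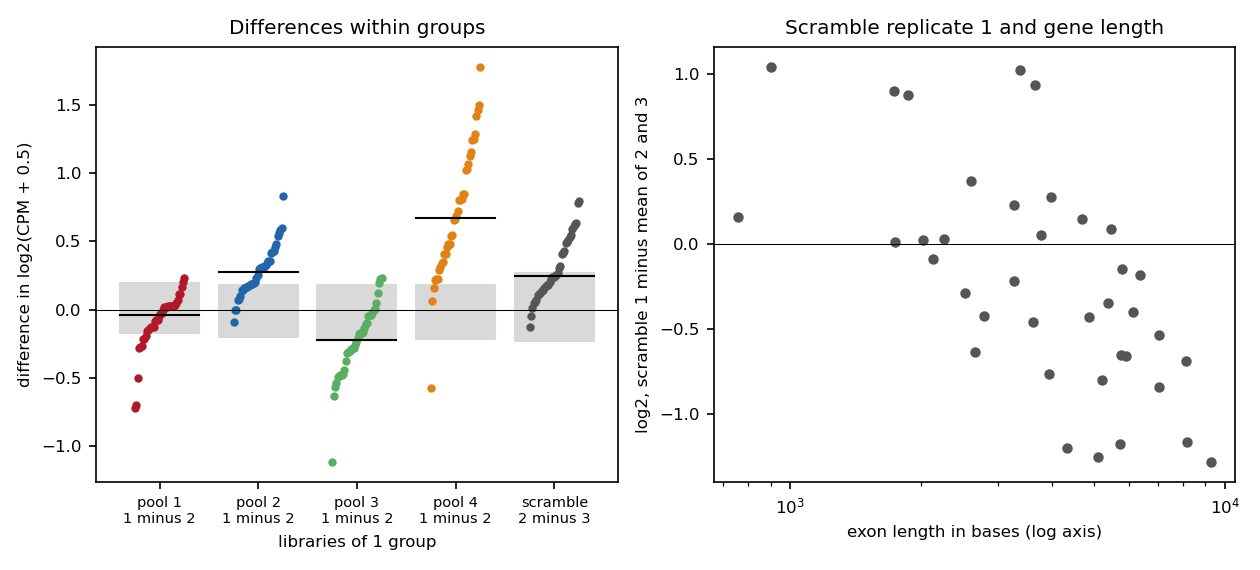
Left: differences between 2 libraries of 1 group in log2(CPM + 0.5) for the 38 genes, 1 point a gene, sorted within a group, with the median as a line and the 5th to 95th percentile of all genes as a grey band. Right: scramble replicate 1 minus the mean of replicates 2 and 3 (log2) against exon length in bases (log axis), 1 point a gene. The pool 4 points lie almost wholly above the grey band (median 0.67), and the points on the right run downward with length, to −1.28 at Parp14.

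Upstream of these genes, transcripts of the interferon genes listed here were nearly absent at 30 h. Further interferon genes and earlier times were not examined. Ifna1, Ifna2, Ifna4, Ifna5, Ifnl2 and Ifnl3 had 0 reads in all 11 libraries, Ifnb1 was seen in scramble replicate 1 alone at 0.0613 CPM, and Ifng did not exceed 0.0391 CPM. A count of 0 allows 0.0919 to 0.126 CPM per library by counting error.

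The type I receptor subunit Ifnar1 was lower in 3 of the 4 pools. It had 79.2 and 75.3 CPM in pool 1, 124 and 123 in pool 2, 62.1 and 66.7 in pool 3, 74.8 and 76.7 in pool 4, and 105, 122 and 123 in scramble. Every library of pools 1, 3 and 4 lay below all of scramble, and both pool 2 libraries lay above it. The log2 change was −0.65 ± 0.11 in pool 1 (edgeR adjusted p = 0.0253), −0.93 ± 0.11 in pool 3 (0.00182) and −0.67 ± 0.11 in pool 4 (0.019), and pool 2 was not called (0.08 ± 0.10). Without scramble replicate 1 the changes were −0.73, −1.02 and −0.76 in pools 1, 3 and 4. Ifnar2, the other subunit, had 39.4 and 38.1 CPM in pool 1, 37.3 and 37.8 in pool 2, 38.7 and 40.6 in pool 3, 38.5 and 39.1 in pool 4, and 58.5, 37.7 and 37.7 in scramble, and was called in no pool. In pool 3 the type II receptor subunit Ifngr1 fell by 0.60 ± 0.10 on the log2 scale (edgeR adjusted p = 0.0071), with 22.4 and 22.5 CPM in pool 3 against 34.7, 30.6 and 32.2 CPM in scramble.

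**Figure D5:**
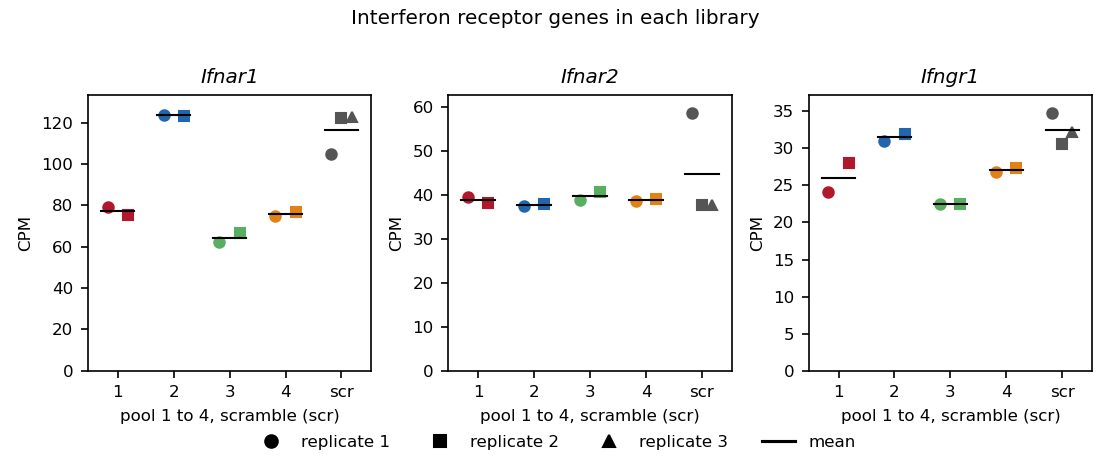
Levels of Ifnar1, Ifnar2 and Ifngr1 in CPM (linear axes from 0), 1 panel a gene, with pools 1 to 4 to the left of scramble (scr), 1 point a library and a bar for the group mean. Ifnar1 lies at 62.1 to 79.2 CPM in pools 1, 3 and 4, and at 105 to 124 CPM in pool 2 and scramble, whereas Ifnar2 is flat except for scramble replicate 1.

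Of 42 genes of the interferon and sensor pathway outside the set, 31 were tested. In pools 1 and 4 against pools 2 and 3, 2 were higher, Jak1 among them, and 2 lower (Ifnar1 and Traf6), against 4.44% of all genes higher and 6.31% lower, with a median of 0.03. In pool 1 against scramble 0 were higher and 1 lower (Ifnar1), in pool 3 0 higher and 4 lower (Ifnar1, Ifngr1, Il10rb and Irf5), and in pool 4 0 higher and 1 lower (Ifnar1), in comparisons that called 1.93%, 11.2% and 2.57% of all genes. Among the pools, Ifnar1 was highest in pool 2 and lowest in pool 3, so it did not divide pools 1 and 4 from pools 2 and 3.

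A second list of 59 interferon-stimulated genes was also described. Of 54 tested, 20 were higher and 0 lower in pools 1 and 4 than in pools 2 and 3 (4.44% and 6.31% of all genes), with a median of 0.20. The largest differences among the called genes were those of Ifit3b (1.33 ± 0.20, edgeR adjusted p = 7.03e-05), Cmpk2 (1.19 ± 0.16, 2.36e-05), the GTPase Iigp1 (0.86 ± 0.19, 0.00362) and the helicase Ddx60 (0.77 ± 0.18, 0.00632). Cmpk2, a mitochondrial nucleotide kinase gene next to Rsad2, had 9.67 and 15.2 CPM in pool 1, 3.48 and 2.81 in pool 2, 4.19 and 5.96 in pool 3, 8.76 and 5.17 in pool 4, and 2.14, 4.5 and 3.14 in scramble. In pool 1 against scramble, 4 of the 54 were higher (0.46% of all genes) and 0 lower, namely Ifit3b (2.04 ± 0.34), Cmpk2 (1.88 ± 0.36), Slfn8 (1.71 ± 0.29) and Tgtp1 (1.46 ± 0.21). Ifit3 and Ifit3b, and Oas1a and Oas1g, are close copies, so that the split of reads between them is uncertain.

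NF-kB target genes and the RNA interference machinery were described as further lists. Of 21 tested NF-kB target genes, Birc3 alone was higher in pools 1 and 4 than in pools 2 and 3 (0.21 ± 0.05, edgeR adjusted p = 0.0144), and 0 were lower, against 4.44% and 6.31% of all genes. The chemokine Ccl2 was higher than scramble in pool 1 (0.92 ± 0.18, edgeR adjusted p = 0.044) and in pool 3 (1.61 ± 0.17, 0.00136), as was the adhesion molecule Vcam1 (0.93 ± 0.16, edgeR adjusted p = 0.0308 in pool 1, and adjusted p = 0.00674 in pool 3). These comparisons called 1.93% and 11.2% of all genes. The numbers of the list called in them are not given here, so Ccl2 and Vcam1 cannot be read against those shares. The NF-kB list as a whole stayed near its mean over the 11 libraries. Its median over 20 genes with a mean of at least 1 CPM lay at −0.015 and 0.016 (log2) in pool 1, and −0.0045 and −0.012 in pool 3. The lowest median was −0.086 in pool 2 replicate 2 and the highest was 0.069 in scramble replicate 1. Of the 12 genes of the RNA interference machinery, 0 were higher and 2 lower in pools 1 and 4 than in pools 2 and 3 (4.44% and 6.31% of all genes), Ago3 (−0.17 ± 0.04, edgeR adjusted p = 0.00482) and Dicer1 (−0.15 ± 0.03, 0.000531).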

How the data were processed

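RNA from mouse primary granulosa cells was sequenced as 75-base single reads in 11 libraries. The deposited per-gene counts were whole numbers with 92 spike-in rows, which were left out. The submitters' processing notes name build mm10 and, in no stated order, featureCounts 1.5.0-p2, TopHat2, cutadapt 1.9.1, DESeq2, FastQC 0.11.5 and bcl2fastq 2.15.0. No source used here gives the strand setting of the counting. For the 8 pool libraries against scramble, the authors deposited a table that holds a mean signal (counts divided by size factors), log2 fold changes with SE, a test score and raw and adjusted p-values, per the file headers.

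The members, the gene lists and the contrast of pools 1 and 4 with pools 2 and 3 were chosen with earlier results of these data known. Counts were tested with edgeR 4.0.16 (quasi-likelihood F test, two-sided, TMM scaling, filterByExpr) in R 4.3.3, with Benjamini-Hochberg adjustment over all genes tested and a threshold of 0.05. All pools against scramble was a fit of 2 groups, each pool against scramble a fit of 5 groups on 11 libraries, and comparisons among pools a fit of 4 groups on the 8 pool libraries. DESeq2 1.42.0 and limma-voom (limma 3.58.1) were alternatives, beside RLE scaling, other filters, a replicate block and leaving out libraries. The SE of an edgeR log2 change is its size divided by the square root of F. CPM used reads in genes, log2 levels used a prior of 0.5 CPM, and TPM used GENCODE exon lengths on GRCm38. A floor is 3 counts per library, and floors cover counting error only. Library pairs of a group differed by more than counting noise, with a chi-square per degree of freedom of at least 2.63, so none was counted as a duplicate. The labels do not say that replicates are separate cultures, so the spread behind the p-values may be technical.

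Values in every library are given for Akt1, for the sensors and transcription factors with a mean of at least 1 CPM, and for the 12 other members with the largest range of log2 group means among those averaging at least 5 CPM. Tests are given for members called in a comparison, the sensors and those 12. From the other lists, up to 4 called genes per comparison are named. Further genes (Ifnar2 and the interferons among them) were named after their values were seen. The values of 1 gene of the pathway list are not reported here.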

Additional observations from a re-analysis of the deposited data

Results flagged for a closer look

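The differences between pools in the interferon-stimulated genes and RNA sensors stood out because they passed a test of the difference between groups that all received Akt1 siRNA. Both the genes and the contrast of pools 1 and 4 with pools 2 and 3 were chosen with earlier results known. Passing is therefore not independent of that choice. The genes also shifted together between the libraries of a pool, so the numbers of called genes are not numbers of independent results. Tested for any difference, the 4 pools gave 31 called genes of 41 (48.6% of all genes), and pools 1 and 4 against pools 2 and 3 called 28 of 41 (10.7% of all genes). On the log2 scale, the sensors Ifih1, Ddx58 and Adar differed by 0.38, 0.34 and 0.15 and Stat2 by 0.35. The effectors Rsad2, Ifit1, Mx2, Rtp4, Ifi44, Xaf1 and Oasl2 differed by 1.42, 1.16, 1.11, 0.88, 0.78, 0.62 and 0.46. Isg15, Usp18, Parp14 and Parp9 differed by 0.74, 0.69, 0.56 and 0.44, and Gbp3 by 0.68. Without pool 4 replicate 1 the second comparison called 8 of 41. DESeq2 called 8 of 41 in the first and 5 of 41 in the second, and the edgeR fit with all 11 libraries called 0 of 41 in both, with 6 and 14 at an unadjusted p below 0.05.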

How the results depend on the processing

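Results are given as genes of the set called, then genes called in all. Over all pools, RLE scaling and no filter gave 2 genes in all, DESeq2 gave 4 and 1147, and the 5-group fit 901 in all. In pool 1, a filter of CPM above 1 in every library gave 2 of the set and DESeq2 9 and 788. DESeq2 gave 28 in all in pool 2, 2 of the set in pool 3, and 5 and 872 in pool 4. Among the 4 pools DESeq2 gave 8 of the set and the 5-group fit 0 and 348. For pools 1 and 4 against pools 2 and 3 DESeq2 gave 5 and 885, and the 5-group fit 0 and 1. The 5-group fit adds the scramble libraries to the spread, and for the others the cause was not tested.

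Replicate numbers did not pair the samples: the correlation of replicate differences ran from −0.22 to 0.22 over 10 pairs of groups, with 2 above 0.1, and over the 38 genes alone from −0.76 to 0.55, with 5 above 0.1. The replicate block gave 2 and 1649 over all pools, 0 and 96 in pool 1, 151 in all in pool 4, and 29 of the set for pools 1 and 4 against pools 2 and 3.

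Leaving out both scramble replicate 1 and pool 4 replicate 1, chosen after seeing the data, gave 7 genes in all over all pools, 31 and 3887 in pool 1, 1 and 537 in pool 2, 12 and 6799 in pool 3, and 1 and 2918 in pool 4, where the median log2 change was 0.063.

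Leaving out 1 library at a time gave 0 to 3 of the set, 1 to 2336 in all and a median of 0.29 to 0.64 over all pools, 0 to 28, 9 to 4044 and 0.62 to 0.90 in pool 1, 0 to 0, 1 to 618 and 0.0015 to 0.39 in pool 2, 0 to 5, 210 to 6864 and 0.13 to 0.44 in pool 3, and 0 to 17, 17 to 4364 and 0.17 to 0.93 in pool 4. It gave 18 to 39 and 5753 to 6789 among the 4 pools, and 8 to 35, 1035 to 1337 and 0.21 to 0.56 for pools 1 and 4 against pools 2 and 3. Where this leaves 1 library in a pool, that library is assumed to vary like the other groups. For single genes, 2799 values stayed the same, of which 102 were levels with TMM library sizes. The rest of these were test results that kept their direction and side of the threshold. A further 248 test results lost the call, 111 gained it and 0 reversed, and 8 levels moved with TMM library sizes. Mx1, Oas1a and Oas2 are limited by depth, at under 1 CPM.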
